A study of Mus musculus with 17 samples.

Results

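Axin2, Cdx1, Lef1, Tcf7, Tcf7l1, Sp5, Nkd1, Lgr5, Rnf43 and Znrf3 are genes that carry or respond to Wnt/beta-catenin signalling, grouped here as its target genes. They were taken by symbol from a table of 20621 genes, where all 10 were found, and all 10 were among the 15365 genes tested. The counts come from total RNA of E14 mouse embryonic stem cells (mESCs) in 17 libraries. The question was how cells with a slow RNA polymerase II, named RNAPII-mut and carrying the genotype label slow/slow, and WT cells move into naive pluripotency. RNAPII-mut and WT cells were sampled at 0, 1, 2 and 7 days of 2i, with 2 libraries in each group and 3 in RNAPII-mut at day 1. All groups shared a feeder-free culture on gelatine in 10% serum with 1000 U/mL LIF. The 2i treatment added 1 µM PD0325901, which inhibits MEK, and 3 µM CHIR99021, which inhibits GSK3, while the day 0 groups had neither agent. The labels do not say how many clones each genotype stands for, so the polymerase mutation and a difference between lines cannot be told apart. They also do not say that replicates were separate cultures, so p-values measure the spread between these libraries, which may be technical.

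Beta-catenin is held low by a complex in which Axin and APC present it to the kinase GSK3, which marks it for degradation. When a Wnt ligand or a GSK3 inhibitor stops that kinase, beta-catenin accumulates, enters the nucleus and binds TCF/LEF proteins at their target genes. In mESCs the main partner is Tcf7l1, which represses genes of naive pluripotency until beta-catenin relieves it, and this is the known basis for CHIR99021 in 2i.

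Library totals lay between 47350441 and 56138844 counts. The 11 pluripotent cell markers, among them Pou5f1, Sox2 and Nanog, summed to 7522 to 9440 CPM (counts scaled by TMM to a common library total) in RNAPII-mut libraries and 5404 to 10620 CPM in WT libraries, and none was at 0 in all libraries of a group. Polr2a, the largest subunit of RNA polymerase II, averaged 662 ± 71.3 CPM in RNAPII-mut and 641 ± 79.9 CPM in WT cells at day 0 (SD, n = 2 each), a level that does not check the mutation. Among the WT libraries, replicate 1 of day 0 and of day 1 stood apart by their markers. Their 17 primitive streak and mesoderm markers summed to 228 and 193 CPM, against 18.0 to 71.7 CPM in RNAPII-mut libraries and 22.7 to 85.5 CPM in the other WT libraries. Their 14 trophoblast markers summed to 696 and 1398 CPM, against 77.6 to 168 CPM in RNAPII-mut libraries and 111 to 418 CPM in the other WT libraries. For the target genes, the result of leaving out both libraries is given wherever it changes a call. Where this left a compared group with a single library, only the size of the change or the count of genes is given. Genes of the other lists, these markers among them, were not tested again without both libraries. Both libraries thus entered the fits behind the calls of those lists, and their part in them was not tested. In bulk RNA, fewer cells expressing a gene and less RNA per cell cannot be told apart.

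Promoter sequences, 250 bases before to 50 after each annotated start, were examined for 7 of the 10 genes, from RefSeq on GRCm38.p6. Each was searched on both strands for 4 forms of the TCF/LEF motif, CTTTG followed by AA, AT, TA or TT. A match was present in 16.9% of all 32851 promoter windows in the table, and 2 or more matches in 1.94%. Sp5 had 2 matches, at positions -222 and -104 from its start, the first of them on the minus strand. Lef1 had a match in 1 of its 4 windows, and the windows of Axin2, Tcf7, Tcf7l1, Nkd1 and Rnf43 had none. The 250 bases before the start are shown for Sp5, the gene with the most matches, and for Axin2, the most used reporter of the pathway, which had none in this window. Both run along the plus strand, Sp5 at chr2:70474673-70474922 and Axin2 at chr11:108920099-108920348, with matches in capitals. A match is a string of letters and not a measured binding site, and its absence says nothing of sites elsewhere.
Sp5: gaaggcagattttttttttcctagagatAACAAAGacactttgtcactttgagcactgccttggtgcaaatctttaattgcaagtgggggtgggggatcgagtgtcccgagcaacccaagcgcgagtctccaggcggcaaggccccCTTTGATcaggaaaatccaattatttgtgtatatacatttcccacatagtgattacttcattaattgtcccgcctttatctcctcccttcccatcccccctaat
Axin2: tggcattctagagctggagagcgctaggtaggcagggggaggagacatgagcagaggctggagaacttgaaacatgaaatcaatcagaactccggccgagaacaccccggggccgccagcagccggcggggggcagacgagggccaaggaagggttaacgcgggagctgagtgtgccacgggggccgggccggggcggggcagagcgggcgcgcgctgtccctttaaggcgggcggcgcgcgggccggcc

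Axin2, Nkd1, Rnf43 and Znrf3 encode inhibitors of the pathway that feed back on it. Axin2 and Rnf43 were the members of this group that passed in 2i in the edgeR fit of all libraries without further terms. Axin2 (chr11:108920349-108950783, GRCm38) encodes a scaffold of the destruction complex. It stood at 19.0 and 15.4 CPM on day 0, 36.2, 29.6 and 66.6 CPM on day 1, 52.9 and 55.3 CPM on day 2, and 105 and 94.5 CPM on day 7 in RNAPII-mut cells (values in the order of the replicate numbers, here and below). In WT cells it stood at 44.3 and 24.2 CPM on day 0, 111 and 70.4 CPM on day 1, 82.3 and 42.4 CPM on day 2, and 168 and 66.5 CPM on day 7. Day 7 lay above day 0 without overlap in both genotypes, and every RNAPII-mut library of days 1, 2 and 7 lay above both of day 0. Its log2 changes at day 1, 1.36 in RNAPII-mut and 1.40 in WT, had adjusted p-values of 0.192 and 0.372 in edgeR's quasi-likelihood test. With a term for the replicate number within WT both passed, at 0.0288 in WT. The RNAPII-mut change at day 1 also passed with only the 2 groups compared, with adjusted p-values down to 0.0135 over these 2 settings. At day 2 the RNAPII-mut change was 1.65 ± 0.49 (log2 fold change ± SE, edgeR adjusted p = 0.0977). It passed with the replicate block, the WT term, only the 2 groups compared and DESeq2. At day 7 Axin2 rose by 2.53 ± 0.51 in RNAPII-mut (edgeR adjusted p = 0.00556) and by 1.77 ± 0.49 in WT (edgeR adjusted p = 0.0333). The RNAPII-mut rise had an adjusted p of 0.0542 without RNAPII-mut day 0 replicate 1 and 0.0579 without replicate 2. The WT rise had adjusted p-values of 0.0601, 0.154, 0.239 and 0.0515 without WT day 0 replicate 1, WT day 0 replicate 2, WT day 7 replicate 1 and RNAPII-mut day 0 replicate 1, and of 0.142 when only WT days 0 and 7 entered the fit.

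Rnf43 (chr11:87662722-87735539), a membrane ubiquitin ligase that removes Wnt receptors from the cell surface, was a low transcript. It had 0.642 and 1.02 CPM on day 0, 2.52, 0.990 and 1.51 CPM on day 1, 1.23 and 1.54 CPM on day 2, and 2.99 and 2.76 CPM on day 7 in RNAPII-mut cells. The WT libraries had 1.32 and 0.491 CPM on day 0, 5.74 and 2.10 CPM on day 1, 2.72 and 2.69 CPM on day 2, and 11.9 and 4.42 CPM on day 7. Both genotypes had day 7 above day 0 without overlap. The RNAPII-mut value at day 7 was 1.79 ± 0.65 on the log2 scale and did not pass (edgeR adjusted p = 0.0866). It passed with an adjusted p of 0.0377 without the 2 WT libraries that stood apart, 0.0315 in DESeq2, 0.0141 with a term for the replicate number within WT and 0.00165 when only RNAPII-mut days 0 and 7 entered the fit. Rnf43 rose in WT cells at day 7 by 3.16 ± 0.68 (edgeR adjusted p = 0.0103). Leaving out WT day 0 replicate 2 or WT day 7 replicate 1 gave the WT rise an adjusted p of 0.0598 or 0.0769, and a fit of WT days 0 and 7 alone gave 0.114.

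Nkd1 (chr8:88521354-88594884) encodes an inhibitor that binds Dishevelled. It had 5.06 and 5.66 CPM on day 0, 6.70, 4.21 and 6.31 CPM on day 1, 4.76 and 6.75 CPM on day 2, and 2.86 and 3.38 CPM on day 7 in RNAPII-mut cells. In WT cells it had 3.85 and 2.08 CPM on day 0, 7.69 and 3.53 CPM on day 1, 2.86 and 2.76 CPM on day 2, and 2.00 and 1.76 CPM on day 7. Day 7 was its lowest day in both genotypes, below day 0 and day 1 without overlap. Between day 7 and day 1 the change was -0.88 in RNAPII-mut (edgeR adjusted p = 0.154) and -1.58 in WT (edgeR adjusted p = 0.082), and neither passed. With only the 2 groups compared, the RNAPII-mut change passed (edgeR adjusted p = 0.0476). The WT change passed with a term for the replicate number within WT and in DESeq2. Znrf3 (chr11:5276324-5444847), the close relative of Rnf43, ranged from 13.8 to 25.5 CPM over the 9 RNAPII-mut libraries and from 11.9 to 34.0 CPM over the 8 WT libraries. It overlapped in every pair of groups compared and passed no test.

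Lgr5 (chr10:115450311-115587780), a receptor for R-spondins and a stem cell marker of the adult gut, was close to undetected. It had 0.442 and 0 CPM on day 0 and 0.111 and 0.145 CPM on day 7 in RNAPII-mut cells, and 0.436 and 0.0677 CPM on day 0 and 0.0370 and 0 CPM on day 7 in WT cells. The highest of the 17 libraries was WT day 1 replicate 1 with 0.909 CPM. A count of 0 allows up to 3 counts, which is 0.0503 to 0.0693 CPM in these libraries. All 17 Lgr5 counts were even, and if both mates of a read pair were counted, which was not tested, the limit is 6 counts, or 0.101 to 0.139 CPM. Such limits cover counting error only, because PCR copies of a molecule were not told apart. No change of Lgr5 was detectable at this depth.

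**Figure D1:**
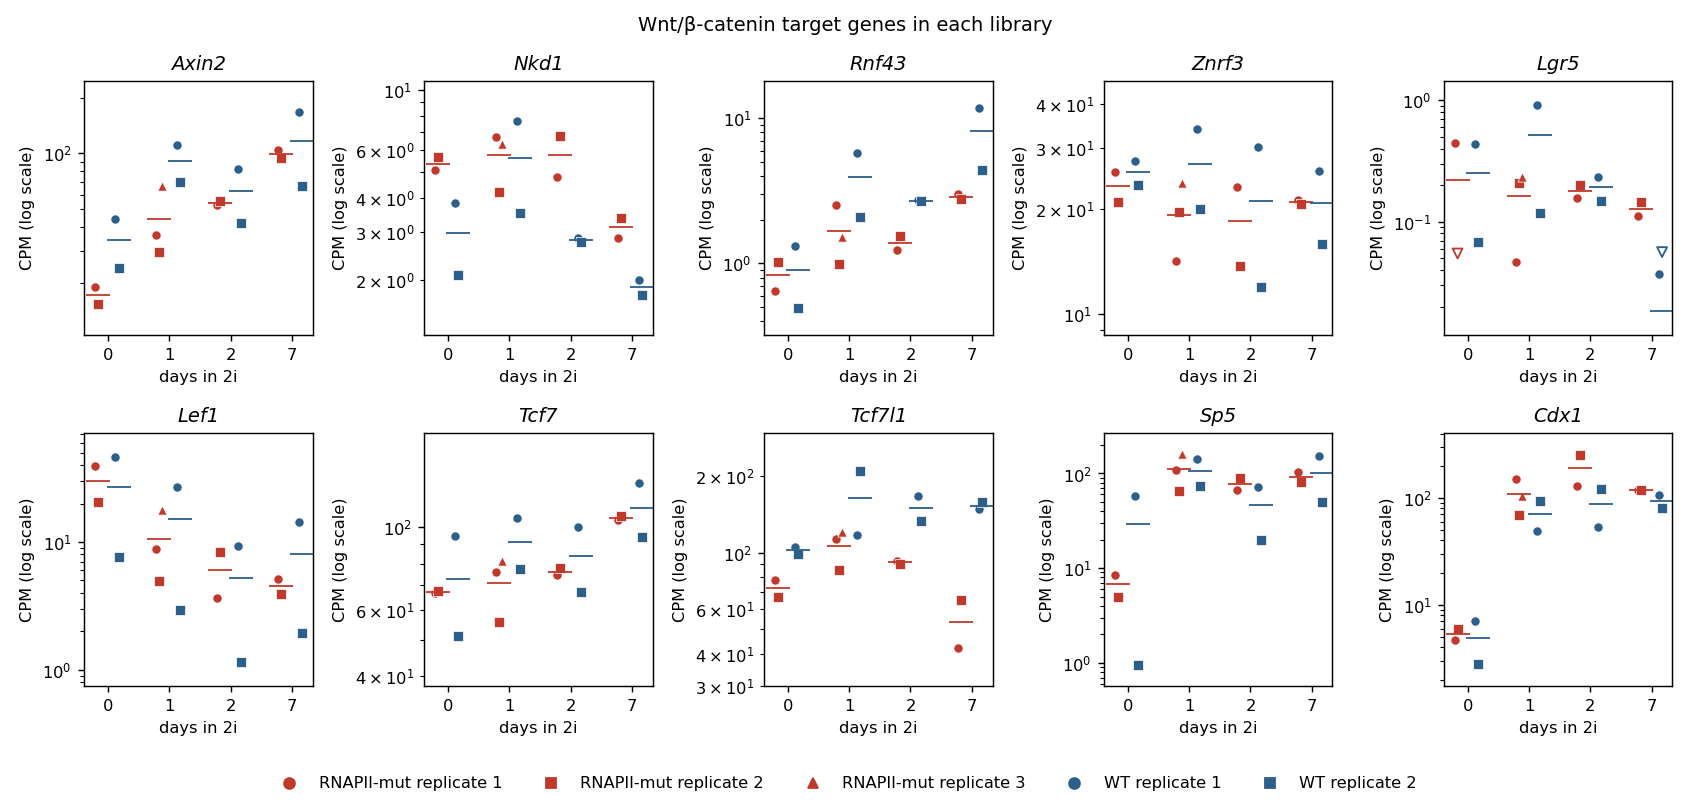
CPM (log axis) of each of the 10 genes in every library against days in 2i, with a bar at each group's mean, and open triangles for Lgr5 libraries with 0 counts, drawn at the limit of 3 counts. Cdx1 lies above its day 0 libraries, 2.81 to 7.07 CPM over both genotypes, in every library in 2i, the lowest of which is at 48.6 CPM, and Tcf7l1 at day 7 separates RNAPII-mut libraries, 42.1 and 65.0 CPM, from WT libraries, 148 and 158 CPM.

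Among the TCF/LEF factors that carry beta-catenin to DNA, Tcf7l1 was lower in RNAPII-mut than in WT cells, while Lef1 was low and variable and Tcf7 differed little between genotypes. Tcf7l1 (chr6:72626378-72789254), the repressor described above, stood at 78.4 and 66.8 CPM on day 0, 113, 85.9 and 121 CPM on day 1, 92.5 and 90.6 CPM on day 2, and 42.1 and 65.0 CPM on day 7 in RNAPII-mut cells. The WT libraries stood at 105 and 99.2 CPM on day 0, 118 and 209.9 CPM on day 1, 167 and 133 CPM on day 2, and 148 and 158 CPM on day 7. The genotypes did not overlap on days 0, 2 and 7, and on day 1 the highest RNAPII-mut library, 121 CPM, lay above the lowest WT library, 118 CPM. Averaged over the 4 days with equal weight, Tcf7l1 was lower in RNAPII-mut cells by a log2 fold change of -0.84 ± 0.13 (edgeR adjusted p = 0.00227). This difference kept its direction and passed in all 27 alternative analyses run on it, with adjusted p-values up to 0.0098. The average took libraries of different days as independent. Same-numbered WT libraries deviated together across days in 6 of 6 pairs of groups (correlations of 0.26 to 0.764), so its SE may be too small. Within RNAPII-mut cells, Tcf7l1 fell between day 1 and day 7, by a log2 fold change of -0.99 ± 0.26 (edgeR adjusted p = 0.0281). The call was lost without any of 4 of the 5 libraries compared, as its adjusted p was 0.076 without RNAPII-mut day 1 replicate 1, 0.0652 without day 1 replicate 3, 0.249 without day 7 replicate 1 and 0.0634 without day 7 replicate 2.

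The genotype difference of Tcf7l1 was -0.49, -0.62 and -0.71 on the log2 scale at days 0, 1 and 2, and -1.51 ± 0.28 at day 7, where the edgeR adjusted p was 0.071. It passed in DESeq2, with an adjusted p of 0.000111, and without the 2 WT libraries that stood apart, with an adjusted p of 0.0295. Leaving out WT day 1 replicate 1 or replicate 2 alone gave 0.0274 and 0.0277. The change between day 7 and day 0 was -0.44 in RNAPII-mut (edgeR adjusted p = 0.319) and 0.58 in WT (edgeR adjusted p = 0.174). The test of the difference between those responses, -1.02 ± 0.38, gave an edgeR adjusted p of 0.609.

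Lef1 (chr3:131110471-131224356), a factor known mainly as an activator, stood at 39.5 and 20.6 CPM on day 0, 8.82, 4.95 and 17.8 CPM on day 1, 3.67 and 8.33 CPM on day 2, and 5.17 and 3.92 CPM on day 7 in RNAPII-mut cells. In WT cells it stood at 46.0 and 7.61 CPM on day 0, 27.1 and 2.94 CPM on day 1, 9.35 and 1.16 CPM on day 2, and 14.3 and 1.95 CPM on day 7. All RNAPII-mut libraries in 2i lay below both day 0 libraries, whereas in WT the day 7 level of replicate 1 lay above the day 0 level of replicate 2. None of the Lef1 contrasts passed in the edgeR fit of the 8 groups without further terms. At day 2 the values were -2.32 ± 1.23 in RNAPII-mut and -2.35 ± 1.23 in WT (edgeR adjusted p = 0.419 and 0.355). With a term for the replicate number within WT both passed at day 2, at 0.0111 in WT. The RNAPII-mut value at day 2 also passed with only the 2 groups compared, with adjusted p-values down to 0.00223 over these 2 settings. The RNAPII-mut value at day 7 was -2.72 ± 1.25 (edgeR adjusted p = 0.171), and the WT value was -1.72 ± 1.20 (edgeR adjusted p = 0.361). With only the 2 groups compared in the fit, the RNAPII-mut value at day 7 had an edgeR adjusted p of 3.65e-06. A term for the replicate number within WT gave adjusted p-values of 0.00195 in RNAPII-mut and 0.0186 in WT at day 7. Without WT day 0 replicate 1, which holds the highest level, the WT value turned to 0.09.

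Tcf7 (chr11:52252371-52283014), which encodes an activating factor also called TCF1, stood at 66.8 and 67.6 CPM on day 0, 76.1, 55.8 and 81.3 CPM on day 1, 74.6 and 77.7 CPM on day 2, and 104 and 107 CPM on day 7 in RNAPII-mut cells. The WT libraries stood at 94.6 and 51.3 CPM on day 0, 105 and 77.4 CPM on day 1, 100.2 and 67.3 CPM on day 2, and 131 and 94.1 CPM on day 7. Day 7 was the highest day of each genotype by mean, without overlap with day 0 in RNAPII-mut and with overlap in WT. The change at day 7 was 0.65 ± 0.30 in RNAPII-mut (edgeR adjusted p = 0.167) and 0.63 ± 0.30 in WT (edgeR adjusted p = 0.178). With a term for the replicate number within WT both passed, with adjusted p-values of 0.0167 in RNAPII-mut and 0.0151 in WT. The RNAPII-mut change also passed when only the 2 groups compared entered the fit (edgeR adjusted p = 0.00255). Without the 2 WT libraries that stood apart, the WT change was 1.14, measured from WT day 0 replicate 2 alone. Within replicate number, Tcf7 was higher at day 7 than at day 0 in both WT series, by 1.39 and 1.84 times.

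Per kilobase of exon, which allows levels of different genes to be compared, Tcf7l1 stood at 0.270 and 0.407 times the level of Tcf7 in the day 7 RNAPII-mut libraries. The other 7 RNAPII-mut libraries had ratios of 0.661 to 1.03, and the 8 WT libraries had ratios of 0.745 to 1.82. Both day 7 RNAPII-mut libraries thus lay below all others, and their low ratio combined the low Tcf7l1 with the high Tcf7 given above. Lef1 per kilobase was at most 0.177 times Tcf7 in any library.

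**Figure D2:**
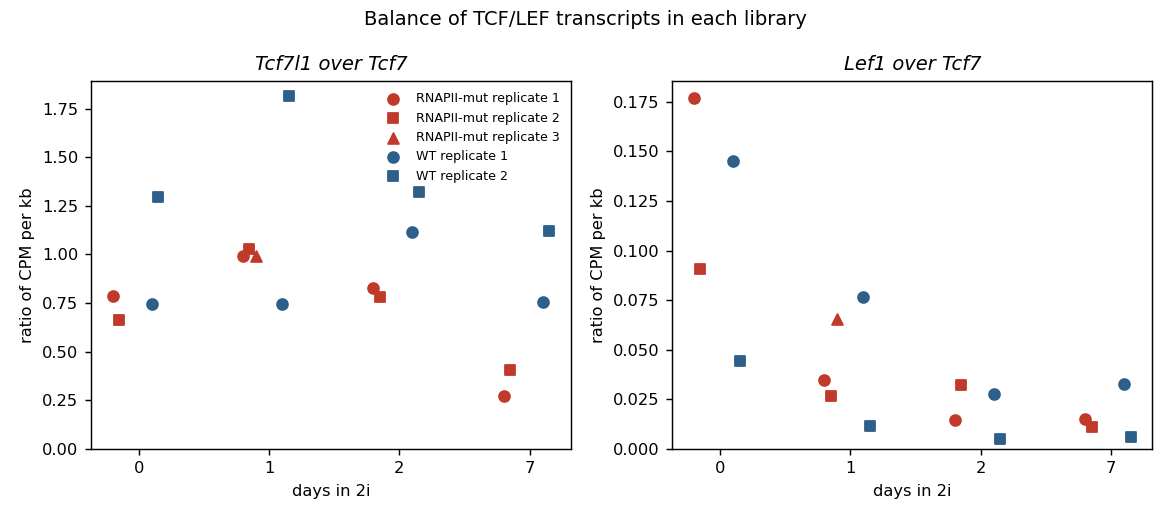
Ratio of CPM per kb of Tcf7l1 to Tcf7 (left) and of Lef1 to Tcf7 (right) in each library against days in 2i. On the left, RNAPII-mut day 7 libraries, at 0.270 and 0.407, are the lowest points, and on the right the highest points are at day 0, where RNAPII-mut libraries reach 0.177 and 0.0908 and WT libraries 0.145 and 0.0444.

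Sp5 and Cdx1 encode transcription factors whose genes are direct targets of the pathway in early embryos, and Cdx1 rose in both genotypes from the first day of 2i. Cdx1 (chr18:61018862-61036199), a caudal homeobox factor of the posterior body axis, stood at 4.72 and 5.91 CPM on day 0, 151, 68.8 and 104 CPM on day 1, 129 and 251 CPM on day 2, and 119 and 119 CPM on day 7 in RNAPII-mut cells. In WT cells it stood at 7.07 and 2.81 CPM on day 0, 48.6 and 92.7 CPM on day 1, 53.6 and 121 CPM on day 2, and 107 and 81.3 CPM on day 7. No library in 2i overlapped with a day 0 library. In RNAPII-mut cells the rise was 4.34 ± 0.57 at day 1, 5.16 ± 0.61 at day 2 and 4.48 ± 0.59 at day 7 on the log2 scale, with edgeR adjusted p-values of 0.00362, 0.00171 and 0.000521. In WT cells it was 3.84 ± 0.57 at day 1, 4.14 ± 0.58 at day 2 and 4.25 ± 0.58 at day 7, with edgeR adjusted p-values of 0.021, 0.00413 and 0.00107. The rises at day 7 passed in all 28 alternative analyses run on each of them. At day 1 the RNAPII-mut rise had an adjusted p of 0.0977 without RNAPII-mut day 0 replicate 1 and 0.058 without replicate 2. The WT rise at day 1 had an adjusted p of 0.219 without WT day 0 replicate 2 and 0.128 without WT day 1 replicate 2. When only the compared WT groups entered the fit, the adjusted p was 1.0 at day 1 and 0.349 at day 2.

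Sp5 (chr2:70474923-70477729), which encodes a zinc finger repressor and carries the promoter matches shown above, stood at 8.55 and 5.0 CPM on day 0, 108, 64.5 and 161 CPM on day 1, 67.3 and 88.8 CPM on day 2, and 102 and 81.1 CPM on day 7 in RNAPII-mut cells. The WT libraries stood at 57.4 and 0.947 CPM on day 0, 142 and 73.0 CPM on day 1, 72.6 and 19.9 CPM on day 2, and 154 and 50.5 CPM on day 7. All RNAPII-mut libraries in 2i lay above both day 0 libraries, while in WT the day 0 libraries themselves lay far apart and WT day 0 replicate 1 overlapped with later days. The RNAPII-mut values were 4.04 ± 1.21, 3.53 ± 1.22 and 3.76 ± 1.23 on the log2 scale at days 1, 2 and 7, with edgeR adjusted p-values of 0.139, 0.16 and 0.0603. Without the 2 WT libraries that stood apart these were 0.00996, 0.0121 and 0.00319, with DESeq2 0.00944, 0.0489 and 0.0141, and leaving out WT day 0 replicate 1 or replicate 2 alone brought all 3 days below the threshold. In WT the value at day 7 was 1.81 ± 1.13 (edgeR adjusted p = 0.309) and, without WT day 0 replicate 1, 6.75. At day 2 the WT value was 0.66 (edgeR adjusted p = 0.793) and, without both WT libraries that stood apart, 5.61. The values of 6.75 and 5.61 were measured from WT day 0 replicate 2 alone, at 0.947 CPM. Within replicate number, WT replicate 1 stood at 1.265 and 2.68 times its day 0 level at days 2 and 7. WT replicate 2 stood at 20.95 and 53.3 times its day 0 level. T (Brachyury), a mesoderm factor and itself a beta-catenin target, had 0.522 and 0.256 CPM in the RNAPII-mut day 0 libraries, and 113 CPM in WT day 0 replicate 1 and 0.203 CPM in WT day 0 replicate 2. The part of mesoderm-like cells in the Sp5 values of WT was not tested.

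**Figure D3:**
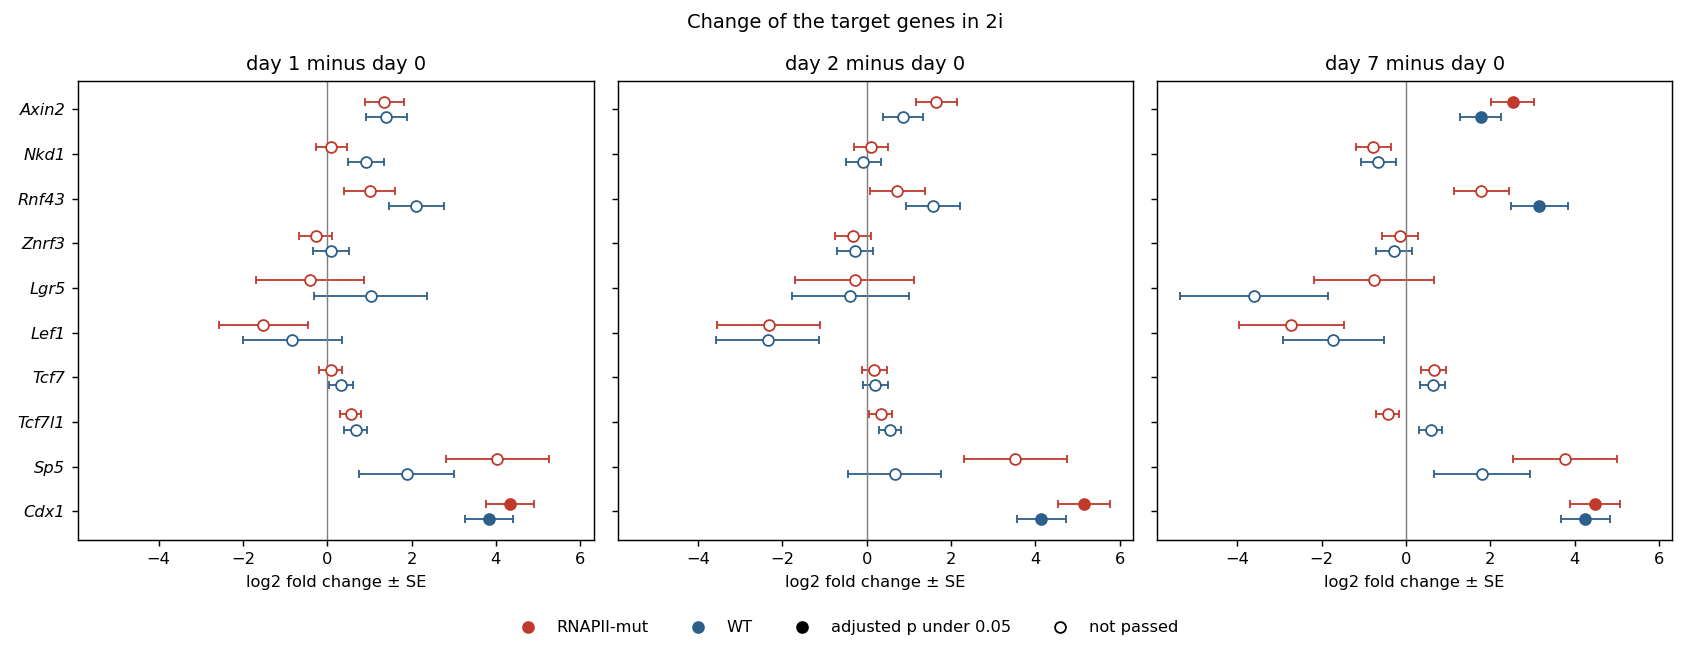
Log2 fold change ± SE of the 10 genes at days 1, 2 and 7 of 2i over day 0, in RNAPII-mut and WT cells, with filled points for an edgeR adjusted p under 0.05. Cdx1 is filled in all 6 comparisons, Axin2 in both genotypes at day 7 and Rnf43 in WT at day 7.

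Counted over the list, 1 of the 10 genes passed at day 1 in RNAPII-mut, Cdx1, where 1.41% of all genes passed and 0.69% passed as higher. At day 2 in RNAPII-mut it was again 1 of 10, against 2.92% of all genes and 1.71% as higher. At day 7 in RNAPII-mut, Axin2 and Cdx1 made 2 of 10, against 14.2% of all genes and 7.2% as higher. In WT, 1 of 10 passed at day 1, against 0.202% of all genes and 0.13% as higher, and 1 of 10 at day 2, against 2.16% and 1.16%. At day 7 in WT, Axin2, Cdx1 and Rnf43 made 3 of 10, against 12.7% of all genes and 6.62% as higher. The median log2 change of the 10 genes at day 7 was 0.25 in RNAPII-mut and 0.61 in WT, where the median of all genes was 0.0 and -0.01. Between day 7 and day 1, 1 of 10 passed in RNAPII-mut, Tcf7l1, against 11.3% of all genes and 5.0% as lower. In WT, 0 of 10 passed in edgeR for that comparison, against 1.22% of all genes, with 2 at an unadjusted p under 0.05 and 1, Nkd1, in DESeq2.

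Per kilobase, the 10 genes spread over more than 3 orders of magnitude and changed their order in 2i. At day 0 in RNAPII-mut cells, Tcf7 with 25.6 ± 0.225 and Tcf7l1 with 18.5 ± 2.10 CPM per kb stood above all others (SD, n = 2). Lef1, Sp5, Axin2, Cdx1 and Znrf3 followed with means between 2.94 and 3.42 CPM per kb, closer to each other than their spread, then Nkd1 with 1.18, Rnf43 with 0.127 and Lgr5 with 0.0215 CPM per kb. At day 7 in RNAPII-mut cells the order was Cdx1 with 67.9 ± 0.154, Sp5 with 43.7 ± 7.16, Tcf7 with 40.2 ± 0.653, Axin2 with 18.1 ± 1.32 and Tcf7l1 with 13.7 ± 4.13 CPM per kb (SD, n = 2), where Sp5 and Tcf7 differed by less than the spread of Sp5. In WT cells at day 7 the highest means were Cdx1 with 53.8 ± 10.4, Sp5 with 48.7 ± 34.8, Tcf7 with 42.9 ± 9.99 and Tcf7l1 with 39.0 ± 1.82 CPM per kb (SD, n = 2). Neighbours in that order differed by less than the spread of one of them, while Cdx1 and Tcf7l1 did not overlap.

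Between genotypes on a given day, 0 of the 10 genes passed in edgeR on day 0, 1, 2 or 7, where 0.28%, 0.417%, 0.0716% and 0.0976% of all genes passed. At an unadjusted p under 0.05 there were 0, 3, 3 and 2 genes on those days, and DESeq2 called 0, 0, 0 and 1, the last being Tcf7l1. Averaged over the 4 days, 2 of 10 passed, against 12.8% of all genes: Tcf7l1 as lower, where 7.49% of all genes passed as lower, and Nkd1 as higher, where 5.35% passed as higher. The Nkd1 difference was 0.66 ± 0.20 (log2, edgeR adjusted p = 0.0498), and it did not pass in 21 of the 27 alternative analyses, with adjusted p-values of up to 0.119. Among these were the fits that left out any library other than WT day 0 replicate 1 and WT day 1 replicate 1. Axin2 at -0.62 ± 0.23 (edgeR adjusted p = 0.105), Rnf43 at -0.95 ± 0.31 (edgeR adjusted p = 0.0609) and Cdx1 at 0.54 ± 0.25 (edgeR adjusted p = 0.178) did not pass. The Rnf43 difference passed in DESeq2, which called 3 of the 10 genes, and in edgeR without WT replicate 2 of day 0, 1 or 7 or without RNAPII-mut day 1 replicate 1, with adjusted p-values down to 0.0152 over these 5 alternatives. The Axin2 means were 17.2 ± 2.54 CPM in RNAPII-mut and 34.3 ± 14.2 CPM in WT cells at day 0, and 99.6 ± 7.26 CPM in RNAPII-mut and 117 ± 71.4 CPM in WT cells at day 7 (SD, n = 2 each). For the difference of the response to 2i between genotypes, 0 of 10 genes passed in edgeR at days 1, 2 and 7, where 0.0%, 0.0% and 0.0% of all genes passed (118, 366 and 1178 genes at an unadjusted p under 0.05, and 0, 0 and 73 in DESeq2). At an unadjusted p under 0.05 there were 0, 0 and 1 of the 10 genes, the last being Tcf7l1, and DESeq2 called 0 at each day.

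**Figure D4:**
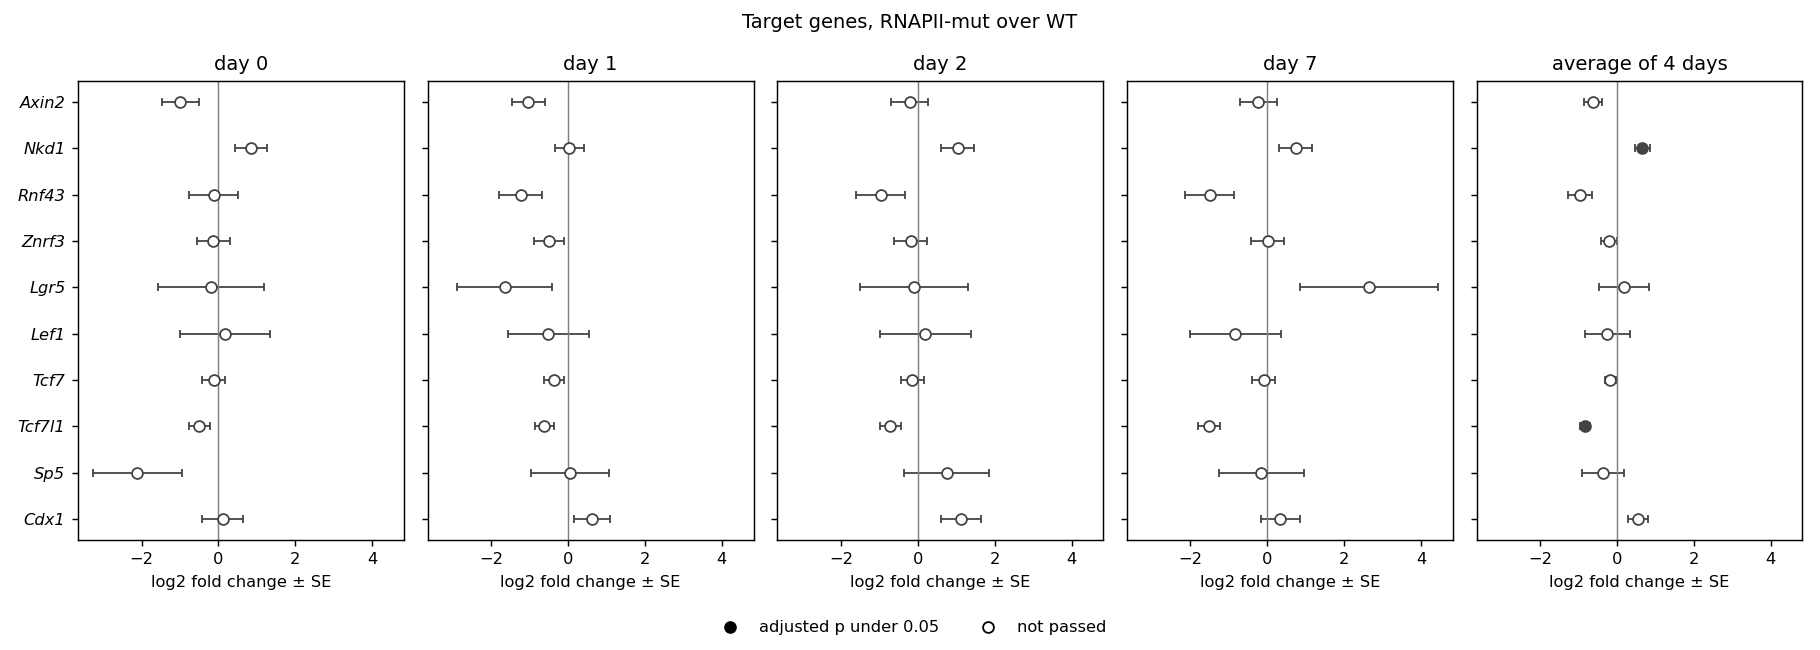
Log2 fold change ± SE of RNAPII-mut over WT for the 10 genes on each day and averaged over the 4 days, with filled points for an edgeR adjusted p under 0.05. Tcf7l1 lies below 0 in all 5 panels and is filled, at -0.84, only in the average, as is Nkd1 at 0.66.

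The libraries numbered 1 and 2 differed within WT in a way that most of these genes shared. In RNAPII-mut, 0 of the 10 genes were higher in replicate 1 than in replicate 2 on all 4 days, a comparison without a test, where 2.19% of all genes tested were. In WT this was so for 8 of the 10, all but Cdx1 and Tcf7l1, where 20.1% of all genes were. Of these 8, Rnf43 and Nkd1 were nearly equal in both WT libraries at day 2, with ratios of 1.012 and 1.034. Lgr5 had 2 and 0 counts in the WT libraries of day 7. Lef1 was 6.04, 9.21, 8.08 and 7.33 times higher in WT replicate 1 than in replicate 2 at days 0, 1, 2 and 7. Sp5 was 60.6, 1.94, 3.66 and 3.05 times higher, and Axin2 1.83, 1.57, 1.94 and 2.52 times higher. The mesoderm marker sums of WT replicate 1 were 228, 193, 40.7 and 85.5 CPM at days 0, 1, 2 and 7, against 22.7, 40.9, 25.5 and 28.6 CPM in WT replicate 2, and their part in these gene levels was not tested. Within replicate number, Axin2 was higher at day 7 than at day 0 in all 4 series, by 5.51 and 6.12 times in RNAPII-mut and 3.78 and 2.75 times in WT. Lef1 was lower in all 4 series, at 0.131 and 0.191 times its day 0 level in RNAPII-mut and 0.310 and 0.256 times in WT.

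**Figure D5:**
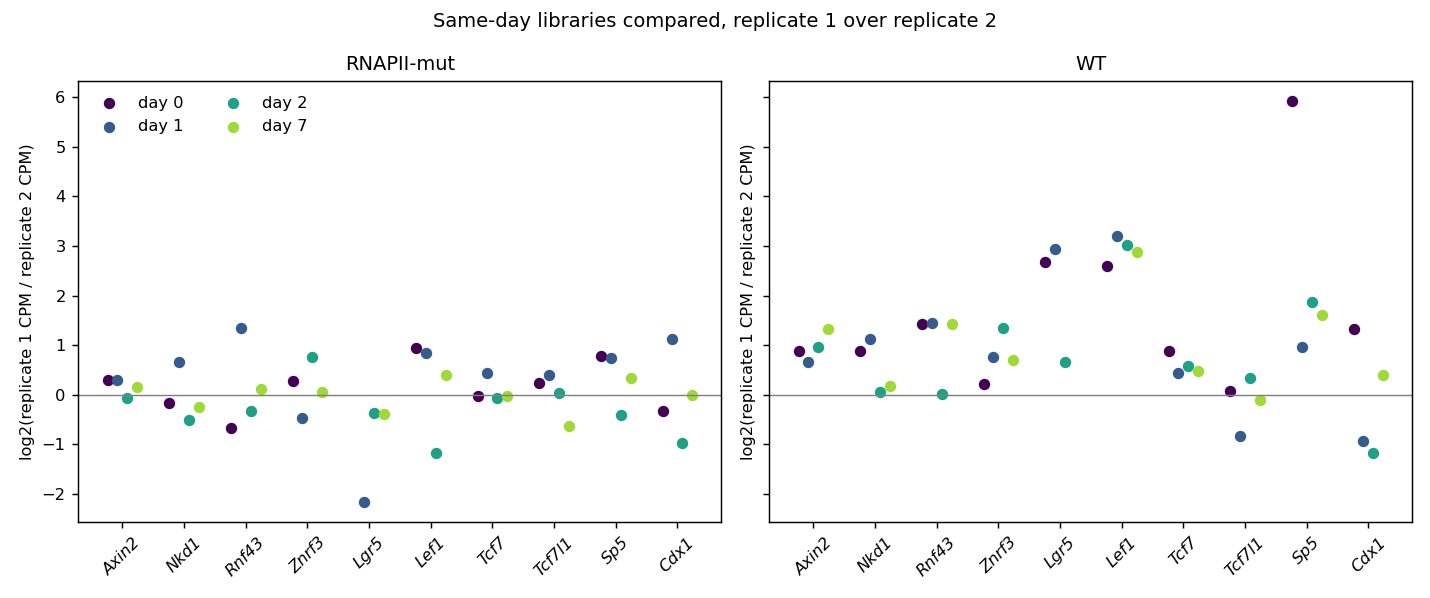
Log2 ratio of replicate 1 to replicate 2 CPM for each gene and day, in RNAPII-mut (left) and WT (right), without days on which either library had 0 counts. In RNAPII-mut no gene lies above 0 on all 4 days, and in WT 8 of the 10 do wherever a ratio is drawn, with Lef1 ratios of 6.04 to 9.21 before taking logs.

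Among upstream parts of the pathway, 17 genes of the destruction complex and of signal transducers were tested. At day 1, 0 passed in edgeR in either genotype, against 1.41% of all genes in RNAPII-mut and 0.202% in WT. At an unadjusted p under 0.05 and in DESeq2 it was also 0 in both. With such shares, a count of 0 says little of these genes. Of the 20 ligand and secretion genes, 0 passed in edgeR at day 1 in either genotype, with 4 in RNAPII-mut and 1 in WT at an unadjusted p under 0.05 and 1 in RNAPII-mut and 0 in WT in DESeq2. Ctnnb1, which encodes beta-catenin itself, averaged 633 ± 126 CPM at day 1 and 722 ± 1.68 CPM at day 0 in RNAPII-mut cells (n = 3 and 2), and 751 ± 103 CPM at day 1 and 784 ± 23.9 CPM at day 0 in WT cells (SD, n = 2 each). Its log2 change was -0.19 ± 0.22 in RNAPII-mut and -0.06 ± 0.24 in WT, with edgeR adjusted p-values of 0.774 and 0.982. The transcripts of Gsk3b, the kinase inhibited by CHIR99021, of Apc and of Axin1 also passed no test at day 1 or day 7 in either genotype, with log2 changes between -0.14 for Apc at day 1 and 0.93 for Gsk3b at day 7, both in RNAPII-mut cells. At day 7, 0 of the 17 destruction complex and transducer genes passed in edgeR in RNAPII-mut, against 14.2% of all genes. In RNAPII-mut 5 of them had an unadjusted p under 0.05 and DESeq2 called 1. In WT 1 passed, against 12.7% of all genes. It was Btrc, which encodes a ubiquitin ligase subunit that recognises beta-catenin, with a log2 change of 1.14 ± 0.26 (edgeR adjusted p = 0.0129).

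Of 16 Wnt receptors and co-receptors, 1 passed in edgeR at day 1 in RNAPII-mut and 0 in WT. Of all genes, 1.41% passed in RNAPII-mut and 0.202% in WT. In WT 4 of the 16 had an unadjusted p under 0.05 and DESeq2 called 1. Fzd7, the main Frizzled receptor of mESCs, had 24.7, 38.4 and 25.9 CPM at day 1 and 91.9 and 98.9 CPM at day 0 in RNAPII-mut cells, and 40.7 and 18.4 CPM at day 1 and 101 and 70.6 CPM at day 0 in WT cells. The groups did not overlap in either genotype. Fzd7 fell by a log2 fold change of -1.69 ± 0.37 in RNAPII-mut (edgeR adjusted p = 0.0458), and the WT value was -1.54 ± 0.42 (edgeR adjusted p = 0.204). At day 7, 4 of the 16 passed in RNAPII-mut, Fzd7 as lower and Ror2, Lrp5 and Fzd10 as higher, and 7 in WT, the same 4 in the same directions plus Fzd3, Fzd6 and Ror1 as lower, where 14.2% of all genes passed in RNAPII-mut and 12.7% in WT. Ror2, a receptor for Wnt ligands of the beta-catenin-independent branch, had log2 changes of 2.29 ± 0.30 in RNAPII-mut and 1.52 ± 0.30 in WT (edgeR adjusted p = 0.000577 and 0.00688). The median over the 16 genes at day 7 was 0.13 in RNAPII-mut and -0.14 in WT.

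Of 20 tested Wnt ligands and secretion genes, 3 passed in edgeR at day 7 in each genotype, against 14.2% of all genes in RNAPII-mut and 12.7% in WT. DESeq2 called 4 in RNAPII-mut and 12 in WT, and the median log2 change was -1.01 in RNAPII-mut and -2.91 in WT. In WT the day 0 library that stood apart was among those compared, and its part in this median was not tested. For the difference of the day 7 response between genotypes 0 of the 20 passed, against 0.0% of all genes. For that difference 1 had an unadjusted p under 0.05 and DESeq2 called 0. Porcn, the acyltransferase needed to secrete Wnt proteins, had 6.47 and 8.12 CPM at day 7 and 42.3 and 32.6 CPM at day 0 in RNAPII-mut cells, and 7.14 and 3.90 CPM at day 7 and 25.9 and 31.8 CPM at day 0 in WT cells. It fell in both, by log2 fold changes of -2.36 ± 0.44 in RNAPII-mut and -2.39 ± 0.44 in WT (edgeR adjusted p = 0.0036 and 0.0052), as did the ligand gene Wnt8a. The third gene was Wnt11 in RNAPII-mut, as higher, and Wnt16 in WT, as lower. Of 6 R-spondin and related receptor genes, Rspo1 passed as lower in both genotypes at day 7, and Lgr4 and Lgr6 as lower in WT. DESeq2 called 2 of the 6 in RNAPII-mut and 4 in WT. In RNAPII-mut cells Lgr4 also lay lower without overlap, with 33.3 and 34.7 CPM at day 7 and 97.8 and 89.7 CPM at day 0. In WT cells it had 38.7 and 20.8 CPM at day 7 and 101.8 and 99.9 CPM at day 0. Of 17 tested secreted antagonists, 3 passed as higher and 3 as lower in each genotype at day 7, with Apcdd1, Dkk3 and Sfrp1 higher and Shisa2 lower in both. Of all genes, 7.2% in RNAPII-mut and 6.62% in WT passed as higher at day 7, and 14.2% and 12.7% passed in either direction. The genes of these lists named for day 7, other than those given for day 1 and the fixed ones, were chosen after their values were seen.

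Of 14 nuclear partners of beta-catenin, 1 passed in edgeR at day 1 in RNAPII-mut, against 1.41% of all genes. In WT it was 0, against 0.202%, with 2 at an unadjusted p under 0.05 and 1 in DESeq2. The gene that passed was Ctbp2, a corepressor, with 126, 173 and 167 CPM at day 1 and 358 and 286 CPM at day 0 in RNAPII-mut cells. It had 171 and 136 CPM at day 1 and 317 and 318 CPM at day 0 in WT cells, and the days did not overlap in either genotype. The log2 fold changes were -1.06 ± 0.22 in RNAPII-mut (edgeR adjusted p = 0.0367) and -1.05 ± 0.24 in WT (edgeR adjusted p = 0.114). At day 7, 2 of the 14 passed in each genotype, Ctbp2 as lower in both, Bcl9l as higher in RNAPII-mut and Tle3 as higher in WT, a share near the 14.2% of all genes in RNAPII-mut and 12.7% in WT. Tcf7l2, the fourth TCF/LEF gene, averaged 12.0 ± 1.23 CPM at day 7 and 3.88 ± 0.658 CPM at day 0 in RNAPII-mut cells (edgeR adjusted p = 0.0532), and 12.2 ± 5.76 CPM at day 7 and 8.44 ± 3.56 CPM at day 0 in WT cells (SD, n = 2 each, edgeR adjusted p = 0.513).

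Of 24 tested further genes reported as beta-catenin targets, 0 passed in edgeR at day 1 in either genotype. Of all genes, 1.41% passed in RNAPII-mut and 0.202% in WT at day 1. At an unadjusted p under 0.05 there were 6 in RNAPII-mut and 1 in WT, and DESeq2 called 3 in RNAPII-mut and 0 in WT. At day 7, 5 passed in each genotype, all as lower, where 14.2% of all genes in RNAPII-mut and 12.7% in WT passed in either direction. Nkd2, Myc, Fosl1 and Ccnd2 were among the 5 in both genotypes, with Id2 in RNAPII-mut and Twist1 in WT. Myc had 14.7 and 17.3 CPM at day 7 and 119 and 87.7 CPM at day 0 in RNAPII-mut cells, and 10.7 and 11.4 CPM at day 7 and 75.5 and 156 CPM at day 0 in WT cells. Its log2 changes were -2.69 ± 0.65 in RNAPII-mut and -3.39 ± 0.67 in WT (edgeR adjusted p = 0.0152 and 0.007). The median change of the 24 genes at day 7 was -0.01 in RNAPII-mut and -1.49 in WT, where the 10 target genes had 0.25 in RNAPII-mut and 0.61 in WT. In WT the stromal and the primitive streak and mesoderm markers also had negative medians at day 7, -2.73 and -1.17, with the day 0 library that stood apart among those compared, and Twist1 is on the stromal list too. Their part in the median was not tested. The MEK inhibitor was present in the same cultures. Of 11 ERK targets, Etv4, Spry4 and Dusp4 passed as lower at day 1 in RNAPII-mut, where 1.41% of all genes passed in either direction. In WT 0 passed in edgeR at day 1, against 0.202% of all genes, with 6 at an unadjusted p under 0.05 and 4 in DESeq2. At day 7, 5 passed as lower in each genotype, where 14.2% of all genes in RNAPII-mut and 12.7% in WT passed in either direction. Spry4, which encodes a feedback inhibitor of ERK signalling, had 0.277, 10.4 and 3.96 CPM at day 1 and 236 and 276 CPM at day 0 in RNAPII-mut cells. In WT cells Spry4 had 2.29 and 3.49 CPM at day 1 and 105 and 303 CPM at day 0. With both agents given together, the part of each in any change cannot be told apart.

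Of 10 genes listed as naive genes repressed by Tcf7l1, Tfcp2l1 and Nanog passed as higher at day 1 in RNAPII-mut. Of all genes, 0.69% passed as higher there. In WT 0 of the 10 passed in edgeR at day 1, where 0.13% of all genes passed as higher. Of the 10, 3 had an unadjusted p under 0.05 in WT and DESeq2 called 2. Tfcp2l1, a naive transcription factor, had 669, 626 and 952 CPM at day 1 and 261 and 365 CPM at day 0 in RNAPII-mut cells, and 558 and 1001 CPM at day 1 and 245 and 308 CPM at day 0 in WT cells. The days did not overlap in either genotype. The log2 changes were 1.26 ± 0.26 in RNAPII-mut (edgeR adjusted p = 0.0345) and 1.50 ± 0.27 in WT (edgeR adjusted p = 0.0506). At day 7, 3 of the 10 passed in RNAPII-mut, Tfcp2l1, Klf4 and Nanog, and 4 in WT, the same 3 and Klf2, all as higher, with median log2 changes of the 10 genes of 0.93 in RNAPII-mut and 0.81 in WT. Of all genes, 7.2% in RNAPII-mut and 6.62% in WT passed as higher. Averaged over days between genotypes, Klf2 and Lefty2 passed as higher in RNAPII-mut cells, and 5.35% of all genes passed as higher. A link of these 2 genes to the level of Tcf7l1 was not tested. Tfcp2l1 was not called in that average, at 0.19 ± 0.13 (edgeR adjusted p = 0.399).

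Markers of other cell types were present at different levels in the genotypes. Averaged over days, 10 of 19 tested fibroblast and stromal markers, 11 of 18 tested primitive endoderm markers, 5 of 11 tested trophoblast markers and 3 of 16 tested primitive streak and mesoderm markers passed as lower in RNAPII-mut cells, and 1 of 12 tested neural markers passed as higher. Of all genes, 7.49% passed as lower and 5.35% as higher in that average. The 20 primitive endoderm markers summed to 802 to 1673 CPM in RNAPII-mut libraries and 1292 to 2262 CPM in WT libraries. The 21 stromal markers summed to 999.8 to 2776 CPM in RNAPII-mut libraries and 983 to 2947 CPM in WT libraries. At day 7, the stromal markers summed to 2191 to 2776 CPM in RNAPII-mut and 2174 to 2720 CPM in WT libraries, with a median log2 difference of -0.65 over the 19 tested. The primitive endoderm markers summed to 1523 to 1673 CPM in RNAPII-mut and 1573 to 2262 CPM in WT libraries at day 7, with a median log2 difference of -1.89 over the 18 tested. The 13 neural markers summed to 122 to 466 CPM in RNAPII-mut libraries and 78.8 to 412 CPM in WT libraries. Tpbpa and Prl3d1, placental markers of the trophoblast list, were at 0 in every group. At day 7 the stromal markers Lum and Dcn were at 0 in both genotypes, with Col3a1, Postn and Prrx1 also at 0 in RNAPII-mut libraries. The part of such cells in the genotype differences of the 10 target genes was not tested.

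The genes whose 8 group means followed a target gene most closely were found by the root mean square difference of centred log2 CPM, among 10108 genes of at least 5 CPM, as a description without a test. For Axin2, whose own group means spread by 0.829 around their mean, they were Rab38 at 0.183, Ror2 at 0.191 and Mep1b at 0.2. For Lef1, with a spread of 0.923, they were Bmp4 at 0.211, Elmo1 at 0.256 and Fam83h at 0.315. For Tcf7l1, with a spread of 0.524, they were Dap at 0.166, Phyhip at 0.182 and Cdc42ep5 at 0.185. Bmp4, which encodes a signalling ligand, averaged 93.9, 29.6, 18.9 and 18.0 CPM at days 0, 1, 2 and 7 in RNAPII-mut cells, and 97.5, 25.6, 15.3 and 20.4 CPM in WT cells.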

How the data were processed

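Total RNA of 17 mESC libraries was represented by raw counts per gene, deposited by the authors as 1 table of 20621 gene symbols, of which 2692 were at 0 everywhere. STAR, deepTools and mm10 are named in the submitters' processing notes. The counting tool, annotation, strand setting and handling of multimapping reads are not given in the sources used here. Of counts from 1 to 9, 91.1% were even, and of all nonzero counts 74.1%. All sample columns were used (0 left out). Counting error is largest for Lgr5, the gene with the fewest counts.

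Counts were tested with edgeR 4.0.16 and limma 3.58.1 in R 4.3.3 by a quasi-likelihood test with TMM factors, after filterByExpr left 15365 genes. All 17 libraries entered 1 fit with 8 groups of genotype and day, without a replicate block (residual degrees of freedom 9, prior 3.96, biological coefficient of variation 0.333). From it came 16 two-sided contrasts, each with Benjamini-Hochberg adjustment over all genes tested and a threshold of 0.05. The standard error is the log2 fold change divided by the root of F. The test was checked on simulated counts. Differences averaged over days weight each day equally and take libraries of different days as independent. CPM values use the TMM-scaled library sizes, and CPM per kb divides them by the exon length of the annotation. Alternatives were other scalings and filters, a replicate block, a term for the replicate number within WT, offsets taking out how a library depended on the length of genes' spans, the compared groups alone, DESeq2 1.42.0, the libraries that stood apart left out, and each library left out in turn. A group left with 1 library took its spread from the other groups. Halving all counts was added after the data were seen.

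Positions are those of GENCODE M21 on GRCm38, the assembly also named mm10, matched for 20110 of 20621 symbols (97.5%). Promoters are RefSeq, GRCm38.p6. The 10 genes, the 15 other gene lists and the alternatives were chosen with earlier results of these data known. All 10 genes are reported in each comparison. From each other list, counts are given, with values for up to 3 genes with the smallest adjusted p among those passing at day 1, plus Ctnnb1, Gsk3b, Apc, Axin1, Tcf7l2, T, Spry4 and Polr2a. Genes named beyond that rule, such as Btrc, Porcn, Ror2, Myc and Bmp4, were chosen after their values were seen. For genes of like pattern, CPM had 0.5 added before taking logs. Same-numbered libraries of different days had correlated deviations over 0.1 in 2 of 6 pairs of groups in RNAPII-mut (-0.59 to 0.263) and 6 of 6 in WT (0.26 to 0.764). Each comparison shared 2 replicate numbers, too few to take them as pairs.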

Additional observations from a re-analysis of the deposited data

Results flagged for a closer look

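Tcf7l1 differed between day 7 and day 0 by values of opposite sign in the genotypes, -0.44 on the log2 scale in RNAPII-mut and 0.58 in WT, neither of which passed (edgeR adjusted p = 0.319 and 0.174). Both RNAPII-mut day 7 libraries, with 42.1 and 65.0 CPM, lay below both RNAPII-mut day 0 libraries, with 78.4 and 66.8 CPM. Both WT day 7 libraries, with 148 and 158 CPM, lay above both WT day 0 libraries, with 105 and 99.2 CPM. The difference between the responses was -1.02 on the log2 scale, and its test in edgeR gave an adjusted p of 0.609, so it did not pass. No group held enough libraries for a check of single outlying libraries.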

How the results depend on the processing

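Of 1227 gene-level values recomputed under another setting, 1111 kept direction and side of the threshold, 67 newly passed, 42 no longer passed and 7 changed sign. These values covered the genes and contrasts called in edgeR and others picked for the text, not every gene in all 16 contrasts. The sign changes were Sp5 in WT at day 2, -0.311 without WT day 0 replicate 2 and -0.554 without WT day 2 replicate 1, Lef1 in WT at day 7, 0.093 without WT day 0 replicate 1, alone or with WT day 1 replicate 1, and Sp5 between genotypes at day 0, 2.835 without the same libraries and 0.041 with a term for the replicate number within WT. Leaving out single libraries, these values ranged from -0.554 to 5.606 for Sp5 in WT at day 2, from -3.78 to 0.093 for Lef1 and from -3.082 to 2.835 for Sp5 between genotypes. The counts of the 10 genes passing were as follows. RNAPII-mut day 1 had 1, and 3 with the WT term, 3 with only the compared groups, 2 without the libraries that stood apart and 2 with DESeq2. RNAPII-mut day 2 had 1, and 2 with the replicate block, 4 with the WT term, 4 with only the compared groups, 2 without the libraries that stood apart and 3 with DESeq2. RNAPII-mut day 7 had 2, and 6, 7, 4 and 4 under the WT term, only the compared groups, without the libraries that stood apart and DESeq2. WT day 1 had 1, and 3 with the WT term, 0 with only the compared groups and 2 with DESeq2. WT day 2 had 1, and 3, 0 and 2 under the WT term, only the compared groups and without the libraries that stood apart. WT day 7 had 3, and 6, 1 and 5 under the same. Day 7 against day 1 gave 1 in RNAPII-mut, and 3 with the WT term or only the compared groups. It gave 0 in WT, and 1 with the WT term or DESeq2. Between genotypes the count was 0 on each day, and 1 with the WT term at days 0, 2 and 7, 1 without the libraries that stood apart and 1 with DESeq2 at day 7. Averaged over days it was 2, and 1 with RLE factors, upper-quartile factors, no filter, a strict filter or halved counts. Leaving out each library gave 0 to 2, 1 to 2 and 1 to 3 in RNAPII-mut at days 1, 2 and 7, 0 to 2, 1 to 2 and 1 to 3 in WT, 0 to 1 for day 7 against day 1 in either genotype, 0 to 0 between genotypes at days 0, 1 and 2, 0 to 1 at day 7, 1 to 2 averaged and 0 to 0 for the response differences. With the replicate block, the fall of Tcf7l1 between day 7 and day 1 in RNAPII-mut had an adjusted p of 0.0528, Axin2 passed there instead, and Axin2 passed with Tcf7l1 in the average in place of Nkd1. The causes were not tested. A fit of only the compared groups was not made for the average, which uses all of them. Of the 10 genes, Lgr5 had the fewest counts, and Rnf43 had as few as 29 in 1 library.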
